A study of Mus musculus with 12 samples.

Results

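The 10 genes described here encode proteins that newly born neurons use to build their cytoskeleton and to control their messenger RNAs: Tubb3, Stmn2, Stmn3, Dcx, Gap43, Ina, Nefl, Nefm, Elavl3 and Elavl4. They were chosen by name, with earlier results of these data known. Every non-control probe whose transcript accession belongs to one of them in the RefSeq gene table was taken. This gave 13 of the 39429 probes on the array. All 10 genes were measured, among 22582 genes or identifiers tested. The samples were female mouse embryos of embryonic day 9.5 from matings between heterozygous carriers of the whirligig allele of Chd7, a chromatin remodeller gene, on a mixed C3HeB/FeJ background. There were 4 homozygous (Chd7Whi/Whi), 4 heterozygous (Chd7Whi/+) and 4 wild-type (Chd7+/+) samples, each on 1 one-colour array. Heterozygous and wild-type samples thus came from the same kind of mating, out of heterozygous mothers, as the homozygous samples. The labels call the homozygous samples knockouts, and the tissue is the embryo without its yolk sac, so neurons were a part of each sample.

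The first neurons of the mouse embryo leave the cell cycle around this age in the spinal cord, hindbrain and cranial ganglia. They switch on proneural transcription factors, then RNA-binding proteins of the Elavl family, which bind AU-rich stretches in messenger RNAs, and then a set of tubulins, microtubule regulators and intermediate filaments with which axons are built. Members of this set are widely used as markers of young neurons. In RNA from whole embryos, fewer neurons and less RNA per neuron cannot be told apart.

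Signals are given as log2 of the processed signal minus the 75th percentile of the same array, so that 0 is the level of a probe at that percentile. Levels are compared between samples for 1 probe at a time. Probes differ in brightness for the same amount of RNA, so no level of one gene is set against another. The 75th percentile lay between 1115 and 1746 signal units, each array had 69.3% to 75.7% of its probes well above background, and pairs of arrays had correlations of 0.986 to 0.995 (same genotype) or 0.983 to 0.994 (different genotypes). The probe used for each of the 10 genes was well above background on all 12 arrays. A further Elavl4 probe was also above background on all 12. Both remaining Dcx probes were dim: one was well above background on no array, and the other on 1 homozygous, 0 heterozygous and 2 wild-type arrays. No probe could be assigned to Chd7 itself with the gene table used, so the genotype labels were not checked against its level. Arrays are called replicates 1 to 4 of a genotype, which are names only. The labels call them biological replicates without saying whether they shared litters.

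In homozygous embryos 9 of the 10 genes had a lower mean than in wild-type embryos, by log2 fold changes of -1.34 to -0.34, and Ina was higher by 0.32. By the probe used for each gene, the largest decreases were those of Dcx, at 39.6% of the wild-type mean, Elavl3 at 45.5% and Nefm at 59.2%. The further Elavl4 probe was at 38.9%. None of the 10 passed an adjusted p of 0.05 in limma, where 1.37% of all tested genes did, 0.886% lower and 0.483% higher. At an unadjusted p under 0.05, 6 of the 10 were lower (Dcx, Elavl3, Nefm, Gap43, Stmn3 and Elavl4) and 0 higher, against 16.9% of all tested genes in either direction and 8.64% lower. The median change of the 10 genes was -0.47, against 0.01 for all tested genes, of which 47.8% had a log2 fold change below 0. In 2 of the 10 genes, Stmn2 and Nefm, every homozygous array was below every wild-type array, a pattern found in 8.5% of all tested genes. The opposite pattern was found in 0 of the 10 and in 5.63% of all tested genes. Because the 10 genes were chosen with earlier results known, these comparisons with all tested genes are descriptions and not tests.

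**Figure D1:**
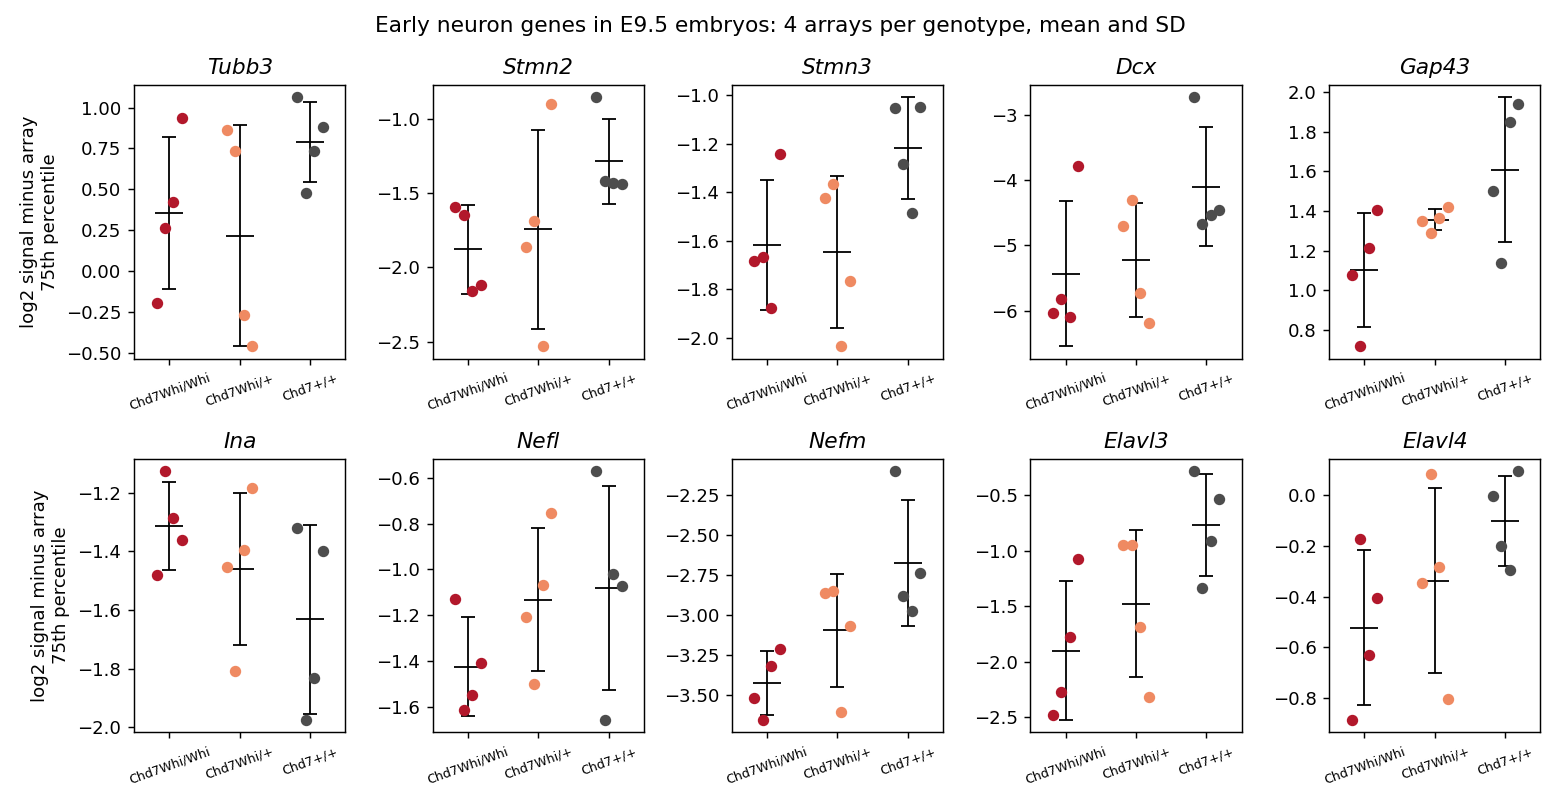
Scaled log2 signal (log2 signal minus the 75th percentile of the array) of each of the 10 genes on the 12 arrays, 1 panel per gene, with homozygous (Chd7Whi/Whi), heterozygous (Chd7Whi/+) and wild-type (Chd7+/+) arrays from left to right. Points are arrays, the long bar is the mean and the whiskers are the SD over 4 arrays, and for Stmn2 and Nefm all homozygous points lie below all wild-type points.

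Promoter sequences were available for 6 of the 10 genes (Tubb3, Stmn3, Dcx, Ina, Elavl3 and Elavl4). Those of Elavl3 and Dcx are printed because, by the probe used for each gene, they were lowest relative to wild type and ran closest together over the arrays. That of Ina is printed because its change had the opposite sign. Each runs 5′ to 3′ on the strand of the gene, from 250 bases before to 50 after a RefSeq start on GRCm38.p6, and capitals mark the E-box letters CANNTG, the core that proneural factors bind. The Elavl3 window is chr9:22051974-22052273 (minus strand), the Dcx window chrX:143933170-143933469 (minus strand) and the Ina window chr19:47014431-47014730 (plus strand).

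Elavl3: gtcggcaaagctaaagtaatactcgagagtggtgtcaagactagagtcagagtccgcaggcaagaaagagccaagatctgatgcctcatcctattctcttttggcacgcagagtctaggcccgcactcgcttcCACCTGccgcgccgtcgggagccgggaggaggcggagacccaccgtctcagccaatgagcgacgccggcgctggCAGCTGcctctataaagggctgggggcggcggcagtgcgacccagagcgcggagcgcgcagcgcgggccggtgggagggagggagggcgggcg

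Dcx: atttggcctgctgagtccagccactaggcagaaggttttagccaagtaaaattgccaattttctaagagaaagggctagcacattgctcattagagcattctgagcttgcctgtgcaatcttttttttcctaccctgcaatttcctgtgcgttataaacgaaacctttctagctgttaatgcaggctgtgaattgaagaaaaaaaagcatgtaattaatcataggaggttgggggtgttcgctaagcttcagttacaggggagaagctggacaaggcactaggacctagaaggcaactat

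Ina: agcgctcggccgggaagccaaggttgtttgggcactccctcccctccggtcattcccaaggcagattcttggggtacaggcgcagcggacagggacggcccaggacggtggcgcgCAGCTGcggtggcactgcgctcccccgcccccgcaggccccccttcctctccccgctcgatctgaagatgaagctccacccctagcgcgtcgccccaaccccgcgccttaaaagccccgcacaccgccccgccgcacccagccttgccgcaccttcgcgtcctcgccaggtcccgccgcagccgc

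The Elavl3 window held 2 E-boxes, one of them CAGCTG, the Ina window 1, also CAGCTG, and the Dcx window 0. Of the windows not printed, those of Tubb3 and of another Dcx start held 0, that of Stmn3 held 1, and those of the different Elavl4 starts held 0 to 4. Of 32851 promoter windows of this length in the table, 72.3% held CANNTG and 16.3% held CAGCTG, which is a case of CANNTG. All letters were searched on both strands. The letters TATAAA were found in the Elavl3 and Dcx windows and in 13.6% of all windows, and GGGCGG (a GC box) in the Elavl3, Ina and Tubb3 windows and in 35.7% of all windows. A match of letters is a description of the window and was not tested against the changes.

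Among the genes for microtubules, Tubb3 encodes class III beta-tubulin, the tubulin most used to stain young neurons. Tubb3 measured -0.19, 0.26, 0.42 and 0.93 on the homozygous arrays, 0.86, 0.73, -0.27 and -0.46 on the heterozygous arrays and 1.06, 0.48, 0.74 and 0.88 on the wild-type arrays. The heterozygous arrays fell into a high and a low pair, and the brightest homozygous array was within the wild-type range. The means were 0.36 ± 0.47 in homozygous and 0.79 ± 0.25 in wild-type embryos (SD, n = 4 each), a log2 fold change of -0.43 with a 95% interval of -1.12 to 0.25 (limma, adjusted p = 0.502).

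Stmn2 and Stmn3 encode stathmins of neurons, which bind tubulin dimers and promote microtubule turnover, Stmn2 in growth cones. Stmn2 measured -1.59, -1.65, -2.16 and -2.12 on the homozygous arrays, -1.86, -1.69, -2.53 and -0.90 on the heterozygous arrays and -0.86, -1.42, -1.43 and -1.44 on the wild-type arrays. All homozygous arrays lay below all wild-type arrays, while the heterozygous arrays spanned both groups. The log2 fold change of homozygous over wild-type embryos was -0.59 ± 0.29 (SE, limma, adjusted p = 0.325). Stmn3 measured -1.68, -1.67, -1.88 and -1.24 on the homozygous arrays, -1.42, -1.36, -2.03 and -1.77 on the heterozygous arrays and -1.05, -1.28, -1.49 and -1.05 on the wild-type arrays. Replicate 4 was the one homozygous array inside the wild-type range. Its change was -0.40 ± 0.18 (SE, limma, unadjusted p = 0.0450, adjusted p = 0.286).

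Dcx encodes doublecortin, a microtubule-binding protein of migrating neurons. It measured -6.04, -5.82, -6.10 and -3.78 on the homozygous arrays, -4.70, -4.31, -5.73 and -6.18 on the heterozygous arrays and -2.73, -4.67, -4.54 and -4.45 on the wild-type arrays. The homozygous arrays were more than 1 log2 unit below the lowest wild-type array in replicates 1 to 3 and above 3 of the 4 wild-type arrays in replicate 4. The mean was -5.43 ± 1.11 in homozygous and -4.10 ± 0.92 in wild-type embryos (SD, n = 4 each), and the 95% interval of the change was -2.66 to -0.01 (limma, adjusted p = 0.291). Gap43, which encodes a membrane-bound phosphoprotein of growth cones, measured 1.07, 0.72, 1.21 and 1.40 on the homozygous arrays, 1.35, 1.29, 1.36 and 1.42 on the heterozygous arrays and 1.50, 1.14, 1.85 and 1.94 on the wild-type arrays. The heterozygous arrays were close together and lay within the wild-type range, and 2 of the 4 homozygous arrays were below every wild-type array. Gap43 changed by -0.51 ± 0.18 in homozygous embryos (SE, limma, unadjusted p = 0.0161, adjusted p = 0.204).

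The changes of the 3 intermediate filament genes differed in sign. Nefm encodes the medium neurofilament subunit and was measured by a probe printed in 10 spots, the others having 1. Nefm was at -3.52, -3.66, -3.32 and -3.21 on the homozygous arrays, -2.86, -2.85, -3.61 and -3.07 on the heterozygous arrays and -2.10, -2.88, -2.98 and -2.74 on the wild-type arrays. The homozygous and wild-type arrays did not overlap, and heterozygous replicate 3 was in the homozygous range. The change was -0.76 ± 0.21 (SE), with a 95% interval of -1.22 to -0.29 (limma, unadjusted p = 0.00419, adjusted p = 0.118). With the slide, which held 4 arrays of all 3 genotypes, as a block, the change of Nefm was -0.86 ± 0.14 (SE) and passed the threshold in limma (adjusted p = 0.0230). In that fit 1.36% of all tested genes passed.

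Nefl, the light neurofilament subunit, measured -1.13, -1.62, -1.55 and -1.41 on the homozygous arrays, -1.21, -1.50, -1.07 and -0.75 on the heterozygous arrays and -0.57, -1.66, -1.02 and -1.07 on the wild-type arrays. Its lowest and highest values were both on wild-type arrays, and the change in homozygous embryos was -0.34 ± 0.22 (SE, limma, adjusted p = 0.440). Ina, which encodes alpha-internexin, the filament protein that precedes the neurofilaments in many developing neurons, measured -1.48, -1.13, -1.29 and -1.36 on the homozygous arrays, -1.45, -1.81, -1.39 and -1.18 on the heterozygous arrays and -1.32, -1.98, -1.83 and -1.40 on the wild-type arrays. It was the only one of the 10 with a higher homozygous mean, and the ranges overlapped. Ina changed by 0.32 ± 0.17 (SE), with a 95% interval of -0.06 to 0.69 (limma, adjusted p = 0.368).

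Elavl3 and Elavl4 encode HuC and HuD, the RNA-binding proteins that mark neurons as they leave the cell cycle. Elavl3 measured -2.48, -2.27, -1.78 and -1.08 on the homozygous arrays, -0.95, -0.95, -1.69 and -2.32 on the heterozygous arrays and -0.28, -1.33, -0.91 and -0.54 on the wild-type arrays. Homozygous replicate 4 alone of its genotype was above the lowest wild-type array, and the heterozygous arrays again fell into a high and a low pair. The mean was -1.90 ± 0.62 in homozygous and -0.77 ± 0.46 in wild-type embryos (SD, n = 4 each), and the change had a 95% interval of -1.94 to -0.33 (limma, unadjusted p = 0.00994, adjusted p = 0.173).

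Elavl4 was measured by 2 informative probes of the same transcript record. The brighter one measured -0.89, -0.17, -0.63 and -0.40 on the homozygous arrays, -0.35, 0.08, -0.28 and -0.80 on the heterozygous arrays and -0.00, -0.20, -0.30 and 0.09 on the wild-type arrays. The groups overlapped, and the change of this probe was -0.42 ± 0.19 (SE, limma, adjusted p = 0.294). The dimmer one measured -3.92, -3.66, -3.31 and -2.76 on the homozygous arrays, -2.33, -2.96, -3.00 and -3.96 on the heterozygous arrays and -1.55, -2.83, -2.06 and -1.75 on the wild-type arrays. Replicate 4 was the only homozygous array above the lowest wild-type array. With every probe tested on its own, the dimmer probe changed by -1.36 ± 0.37 (SE, limma, unadjusted p = 0.00295, adjusted p = 0.106), and the 2 probes thus had the same sign and different sizes.

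**Figure D2:**
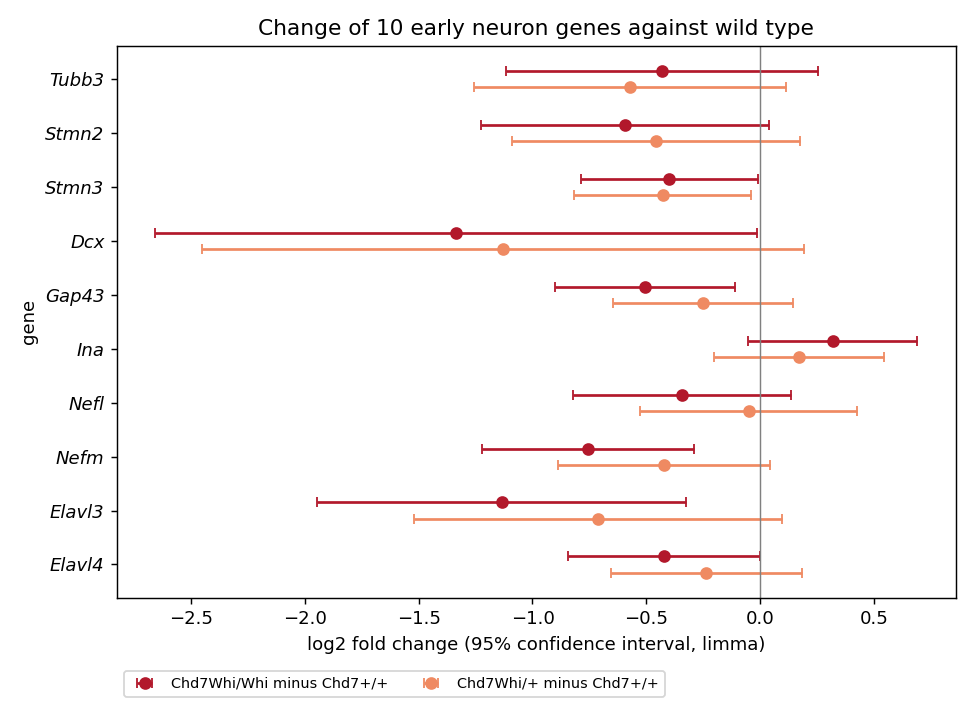
Log2 fold change (horizontal axis) of each of the 10 genes in homozygous minus wild-type (dark red) and heterozygous minus wild-type embryos (orange), with 95% confidence intervals from limma. All points but those of Ina lie below 0, and the homozygous intervals of Nefm, Elavl3 and Gap43 lie farthest from 0.

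In heterozygous embryos 9 of the 10 genes again had a mean below wild type, with Ina again the exception, and none passed the threshold in limma, as did 0.00886% of all tested genes (2 genes). Stmn3 was the only one at an unadjusted p under 0.05, with a change of -0.43 (limma, unadjusted p = 0.0334, adjusted p = 0.297), and 15.3% of all tested genes were at that level, 5% lower. The median change was -0.43, against 0.04 for all tested genes, of which 43.9% were below 0, and it was -0.25 without heterozygous replicate 3. Dcx changed by -1.13, Elavl3 by -0.71, Tubb3 by -0.57, Stmn2 by -0.46, Nefm by -0.42, Gap43 by -0.25, Elavl4 by -0.24, Nefl by -0.05 and Ina by 0.17, with limma adjusted p-values between 0.356 and 0.916. The Nefl change was above 0 without heterozygous replicate 2 (0.071) or without wild-type replicate 1 (0.12). In none of the 10 genes did the heterozygous arrays all lie below or all above the wild-type arrays, against 2.33% and 4.38% of all tested genes. Both comparisons use the same wild-type arrays, so their likeness is not independent evidence.

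Homozygous embryos were also set against heterozygous ones. Of the 10 genes 7 were lower in homozygous embryos, the changes lay between -0.42 and 0.15 with a median of -0.20, and none passed in limma, while 0.0133% of all tested genes passed and 59.8% were below 0. None of the 10 reached an unadjusted p of 0.05, against 6.04% of all tested genes (3.8% lower), and none had arrays that did not overlap, against 1.7% lower and 1.31% higher. In Tubb3, Stmn3, Dcx and Elavl3, heterozygous replicates 3 and 4 lay below every wild-type array, and replicates 1 and 2 lay in the wild-type range except for Dcx in replicate 1, at -4.70 against a lowest wild-type value of -4.67. Replicates 1 and 2 were both on slide 1, and replicates 3 and 4, on slides 2 and 3, both carry the number 53 in their titles, so slide and title number run with this split, and their part in it was not tested.

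The mean of the 10 genes per array, as a difference from the wild-type mean, was -0.75, -0.65, -0.66 and -0.18 on the homozygous arrays, -0.21, -0.19, -0.68 and -0.56 on the heterozygous arrays and 0.41, -0.33, -0.14 and 0.07 on the wild-type arrays. Homozygous replicate 4 was the highest array of its genotype, and wild-type replicate 1 was the highest of all 12. The median change in homozygous embryos was -0.57 without homozygous replicate 4 and -0.42 without wild-type replicate 1, with 9 of 10 genes below 0 in each. Within the 3 slides the median homozygous minus wild-type difference was -0.81, -0.31 and -0.52, with 10, 8 and 9 of the 10 genes below 0. The heterozygous minus wild-type median within slides was -0.50, -0.61 and -0.62. Within samples that share the first number of their titles, whose meaning the labels do not give, the homozygous median was -0.31 (number 50) and -0.72 (number 53). The heterozygous median was -0.50 for number 39 (1 array against 1) and -0.62 for number 53 (2 arrays against 1). For number 50 (1 array, heterozygous replicate 2, against 2) it was 0.09, with 3 of the 10 genes below 0, so the heterozygous decrease did not hold there. Each of these differences within a slide or a number set 1 or 2 arrays against 1 or 2. Of the wild-type arrays 3 were at array position 1 of their slide, where no other genotype was placed, and at position 3, which held 2 homozygous arrays and 1 wild-type array, the homozygous median difference was -0.45, with 9 genes below 0.

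The 10 genes differed in how closely they followed each other over the arrays. Over the 12 arrays the Pearson correlation of a gene with the mean of the 10, which contains it, was 0.94 for Dcx, 0.93 for Elavl3, 0.92 for Nefm, 0.88 for Stmn3, 0.82 for Tubb3, 0.67 for Elavl4, 0.62 for Gap43, 0.47 for Stmn2, 0.41 for Nefl and -0.21 for Ina. Between pairs it ranged from -0.35 to 0.90. After the genotype means were taken out, Tubb3 and Elavl3 had r = 0.94, Dcx and Elavl3 0.86, Tubb3 and Dcx 0.82 and Stmn3 and Dcx 0.80, and 30 of the 45 pairs were above 0. Ina and Nefl had their highest such value with each other, 0.64. These values describe 12 arrays that share genotype and slide.

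**Figure D3:**
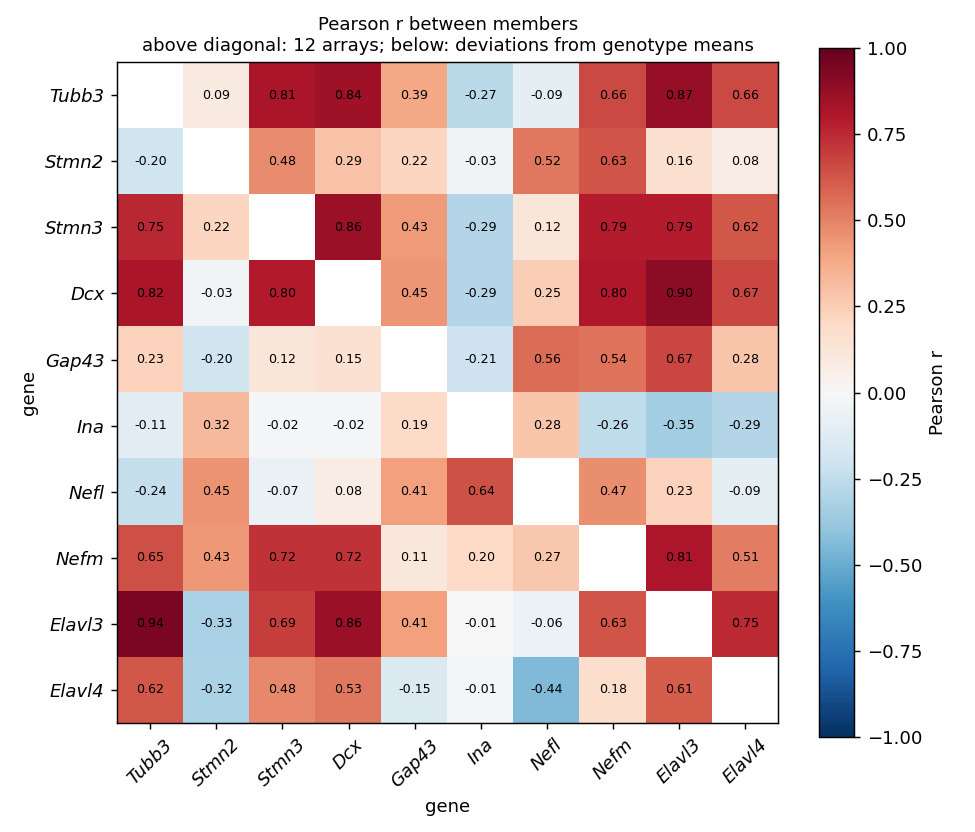
Pearson correlation between the 10 genes, above the diagonal over all 12 arrays and below it for deviations from the genotype means, on a colour scale of -1 to 1. Tubb3, Stmn3, Dcx, Nefm and Elavl3 form the darkest cells, up to 0.94 for Tubb3 and Elavl3 below the diagonal, and the Ina cells above the diagonal are mostly below 0.

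The genes whose pattern over the 12 arrays was most like the mean of the 10, by Pearson correlation among all other tested genes with a symbol, were Rspo4 (r = 0.978), Pantr1 (0.948), Tlcd5 (0.937), Cfap69 (0.936), Rtn1 (0.934), Chgb (0.930), Adh1 (0.929) and Nsg1 (0.927). In homozygous embryos they changed by -1.05 (Rspo4), -1.33 (Pantr1), -0.50 (Tlcd5), -0.30 (Cfap69), -0.29 (Rtn1), -1.60 (Chgb), -0.76 (Adh1) and -0.47 (Nsg1). They were selected for this likeness, so these changes carry no test.

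Widely expressed relatives of the 10 genes were compared with them on the same arrays. Stmn1, the stathmin of dividing cells, changed by 0.05 in homozygous embryos, Tubb5 by 0.19, Tubb4b by 0.15, Elavl1 (HuR) by -0.26 and Vim (vimentin, the filament of progenitor and mesenchymal cells) by -0.30, and none of the 11 relatives passed in limma (median 0.01). The difference between the change of a neuronal gene and that of its relative was -0.64 for Stmn2 and Stmn1, -0.88 for Elavl3 and Elavl1, -0.62 for Tubb3 and Tubb5, and -0.45 for Nefm and Vim, while Ina exceeded Vim by 0.62. It was -0.58 for Tubb3 and Tubb4b and -0.45 for Stmn3 and Stmn1. The difference was nearest 0 for Nefl and Vim, at -0.04 (exact permutation p = 0.886), and for the brighter Elavl4 probe and Elavl1, at -0.16 (exact permutation p = 0.343). The dimmer Elavl4 probe, which changed by -1.36, was not set against Elavl1, so the small Elavl4 difference holds for 1 probe only. In exact two-sided permutation tests of 4 against 4 arrays the smallest p possible is 0.0286, and that was reached for Nefm and for Ina against Vim. Over the 9 pairs compared the lowest adjusted p was 0.110, so no difference passed. An adjusted p under 0.05 was out of reach unless most pairs were at the smallest p, and several pairs share a gene. This outcome therefore cannot show that the neuronal genes moved with their relatives.

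A further list held other genes of the neuronal cytoskeleton. Of 20 tested, 0 passed in limma in either direction, 15 had a homozygous mean below wild type, 5 were lower and 1 higher at an unadjusted p under 0.05, and the median was -0.15. Map2, a microtubule-associated protein of dendrites, changed by -0.63, Dclk1, a kinase related to doublecortin, by -0.54 and Dpysl3, a tubulin-binding growth cone protein, by -0.29 (limma adjusted p 0.182 to 0.281). Nefh, the heavy neurofilament subunit, differed from Nefl and Nefm in sign, at 0.96 ± 0.42 (SE, limma, adjusted p = 0.280), with all homozygous arrays above all wild-type arrays.

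Of 12 other RNA-binding proteins of neurons, 0 passed, 9 were below 0, 5 were lower and 1 higher at an unadjusted p under 0.05, and the median was -0.35. Srrm4, a neuronal splicing activator, changed by -1.20 ± 0.42 (SE, limma, adjusted p = 0.199) and Elavl2 (HuB) by -0.41. Rbfox3, the NeuN antigen of mature neurons, was the highest, at 0.87 ± 0.22 (SE, limma, adjusted p = 0.0805).

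Genes past the threshold were found in other lists of neuronal genes. Of 16 tested membrane and secretory genes of early neurons (18 listed), 8 were below 0 and 8 above, with a median of -0.00, and 2 fell and 0 rose: Nrcam, an axonal adhesion molecule, by 0.64 on the log2 scale (limma, adjusted p = 0.0409), and Syt1, a calcium sensor of vesicle release, by 0.78 (limma, adjusted p = 0.0465). Of 13 tested homeodomain factors of neuron identity (17 listed), 9 were below 0 and 4 above, and 3 fell: Pou4f1 of sensory neurons by 0.86 (limma, adjusted p = 0.0163), Isl1 of motor and sensory neurons by 0.80 (limma, adjusted p = 0.0291) and Lhx9 by 0.97 (limma, adjusted p = 0.0357). Of 16 proneural and differentiation factors 14 were tested, and 1 fell, Neurod4, which was well above background on 0 homozygous, 2 heterozygous and 4 wild-type arrays (limma, adjusted p = 0.0479). Neurod4 and 4 others of the 14 (Neurod1, Nhlh2, Atoh1 and Myt1l), and 1 homeodomain factor, Lhx4, passed the background filter through the wild-type arrays alone, where they had to be high, so their changes and the list means that contain them do not support a decrease. Neurog2, a proneural factor, was at -1.03 ± 0.23 (SE, limma, adjusted p = 0.0510). Of 15 neural progenitor genes 0 passed and 12 were below 0, with a median of -0.35, and those lowest in p were Hes5, a Notch target, at -0.74 and Prom1, a surface protein of stem and progenitor cells, at -0.43. None of these 6 calls held with title number as a block. With array position as a block, homozygous minus wild type rested on position 3 alone, with 1 wild-type array, so its calls are not given. Leaving out each of the 12 arrays kept the call in 8 fits for Pou4f1, 7 for Isl1, 6 for Lhx9, 4 for Nrcam, 3 for Syt1 and 2 for Neurod4. In heterozygous embryos no gene of any of these lists passed.

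**Figure D4:**
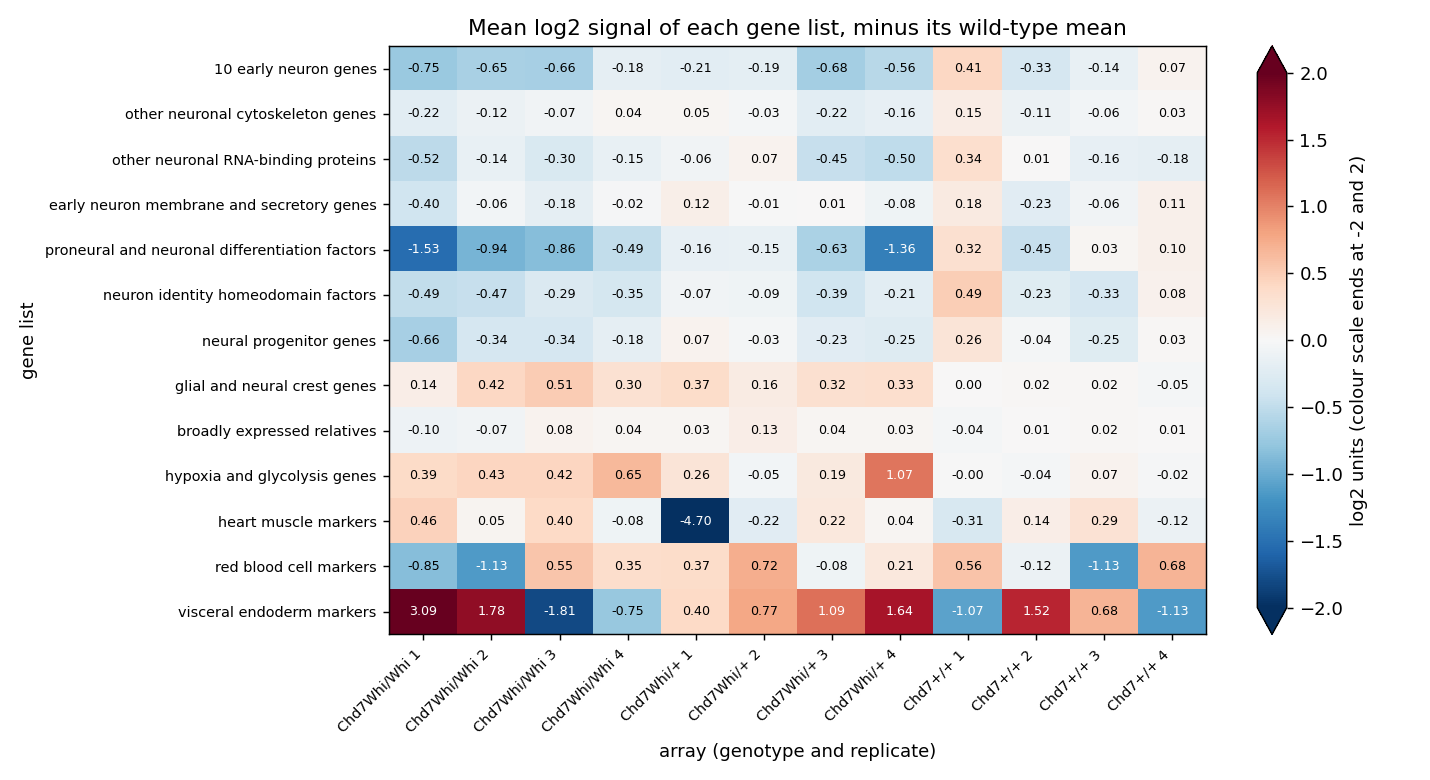
Mean scaled log2 signal of each gene list on each array minus its wild-type mean, with lists down the page and the 4 homozygous, 4 heterozygous and 4 wild-type arrays from left to right (colours end at -2 and 2). The 10 early neuron genes are lowest on homozygous replicates 1 to 3 and heterozygous replicates 3 and 4, and the hypoxia and glycolysis genes are highest on heterozygous replicate 4.

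Markers of other cell types and states moved across the same arrays. Genes of hypoxia and glycolysis had a mean of 0.39, 0.43, 0.42 and 0.65 on the homozygous arrays, 0.26, -0.05, 0.19 and 1.07 on the heterozygous arrays and -0.00, -0.04, 0.07 and -0.02 on the wild-type arrays, each as a difference from wild type. All 12 were above 0 in homozygous embryos, 5 of them at an unadjusted p under 0.05 and 0 past the threshold in limma. The lowest in p were Pdk1, an inhibitor of pyruvate entry into mitochondria, at 0.79 and Pfkl, a glycolytic enzyme, at 0.77. Their summed signal was 553 to 671 times the 75th percentile in homozygous, 489 to 848 in heterozygous and 458 to 538 in wild-type embryos. Of 7 glial and neural crest genes 3 were below 0 and 4 above in homozygous embryos, with a median of 0.04. In limma 1 of them was lower at an unadjusted p under 0.05. Past the threshold 2 rose, Sox10 by 1.16 (limma, adjusted p = 0.0154) and Foxd3 by 1.33 (limma, adjusted p = 0.0211), both transcription factors of neural crest. Their calls were also lost with title number as a block, and were kept in 10 (Sox10) and 7 (Foxd3) of the 12 fits that left out an array. The 7 genes had a summed signal of 4.53 to 6.17 in homozygous, 4.52 to 5.28 in heterozygous and 4.17 to 4.69 in wild-type embryos.

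Visceral endoderm markers had a summed signal of 4.08 to 69.3 in homozygous, 12.9 to 29.0 in heterozygous and 5.84 to 29.3 in wild-type embryos, and 0 of 6 passed (Ttr at 1.10 ± 0.92 and Rbp4 at 0.59 ± 0.74, SE, were lowest in p). Red blood cell markers ranged from 81.4 to 274 in homozygous, 179 to 317 in heterozygous and 99.3 to 297 in wild-type embryos, and 0 of 5 passed (Hbb-bh1 at -0.32 and Alas2 at -0.36). Heart muscle markers ranged from 141 to 197 in homozygous, 8.48 to 178 in heterozygous and 122 to 181 in wild-type embryos, and 0 of 6 passed (Tnnt2 at 0.36 and Myh6 at 0.40). The value of 8.48 came from heterozygous replicate 1, without which the heterozygous median of the 10 neuron genes was -0.46. The part of these cell types and states in the changes of the neuron genes was not tested.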

How the data were processed

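RNA of 12 embryo samples was hybridised to one-colour (Cy3) Agilent arrays and quantified with Agilent Feature Extraction 10.7.3.1, per the file headers. The deposited processed signal of each spot was used as its intensity; that software had corrected it for background within each array, per the file headers. The deposited value table held the same intensities (largest difference 0). The submitters' processing notes also name limma, with no version.

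Control spots (1377) and non-uniform or population-outlier spots (171 to 386 per array) were left out, and no spot was saturated (0). Log2 of the intensity minus the array's 75th percentile was computed. Of 39429 probes, 26055 were named by transcript accession through a RefSeq table of GRCm38.p6 (19751 genes), and 13374 kept the identifier of the file. The probe with the highest mean stood for its gene. A gene was tested when a share of at least 0.5 of its spots exceeded background clearly on every array of 1 genotype or more and each genotype had a value. One mean per genotype was fitted to the 12 arrays with limma 3.58.1 (lmFit, eBayes; R 4.3.3), with Benjamini-Hochberg adjustment over all 22582 tested and a threshold of 0.05. In simulated data for homozygous minus wild type (22221 genes), recovery was 22.1% for log2 changes of 0.5, 71.9% for 1 and 95.5% for 2. The number of arrays limits the precision, and the p-values set each change against the spread between arrays of the same genotype. The fit took these arrays as independent, although some arrays of the same genotype share a title number.

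The members and lists were chosen with earlier results of these data known. Genes named are the members, the genes of each list lowest in p or past the threshold, and the 8 most like the members' mean. Map2, Nefh, Srrm4 and Neurog2 were chosen after their values were seen. The correlation of deviations was taken between samples of different genotypes. Its median was 0.02 in 11 pairs that share a title number and 0.02 in 37 that do not. These values cannot decide whether a shared number pairs samples, because the pairs share arrays and some arrays of one genotype share a number. Alternatives were another background correction, normalization and filter, other probe choices, slide, position or title number as a block, array weights and leaving out each array.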

Additional observations from a re-analysis of the deposited data

Results flagged for a closer look

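In each of the 10 genes the highest and lowest array of each genotype was set against the others of that genotype (30 groups of 4 arrays). In 3 groups, 1 array stood apart by a gap, as a share of the group's range, above Dixon's critical value at 95%, where chance gives about 1 in 20. Dcx was at -3.78 on homozygous replicate 4, with the others between -6.10 and -5.82 (gap ratio 0.881), and at -2.73 on wild-type replicate 1, with the others between -4.67 and -4.45 (0.885). Stmn2 was at -0.86 on wild-type replicate 1, with the others between -1.44 and -1.42 (0.966).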

How the results depend on the processing

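The median change of the 10 genes stayed below 0 under all 13 other settings tried and when each of the 12 arrays was left out. Some settings cannot move it. The deposited value table, the other filters, each probe on its own, the 2 genotypes alone and trend and robust variance leave each fold change as it was. So does leaving out an array of the genotype not compared. Over the 13 settings the median was -0.55 to -0.44 in homozygous minus wild-type embryos. It was -0.54 to -0.38 in heterozygous minus wild-type and -0.23 to -0.04 in homozygous minus heterozygous embryos. With each of the 12 arrays left out the ranges were -0.59 to -0.40, -0.51 to -0.25 and -0.26 to -0.08. The number of the 10 genes past the threshold was 0 in each of these settings except with slide as a block in homozygous minus wild-type embryos, where it was 1 (Nefm, adjusted p = 0.0230, against 0.0961 or more under the other settings and 0.0904 to 0.307 with an array left out). In an added set of settings chosen after seeing the data, the dimmer Elavl4 probe passed with normexp background correction (-1.22, adjusted p = 0.0386). Heterozygous minus wild-type Nefl turned sign with array position as a block (0.063) and ranged from -0.24 to 0.12 with an array left out, turning without heterozygous replicate 2 or wild-type replicate 1. Over all tested genes, homozygous minus wild-type calls numbered 309 and became 19 with position as a block (3 lower, 16 higher), 521 with array weights, 186 with no filter, 93 with normexp, 17 with title number as a replicate block and 114 to 450 with an array left out (lowest when homozygous replicate 1, 2 or 3, at 152, 139 or 142, or wild-type replicate 1 or 4, at 114 or 116, was omitted). The title number block uses only numbers that 2 genotypes share, and the labels do not say what the numbers mean. Heterozygous minus wild-type calls numbered 2 and became 5 with no filter or with slide, 1 with normexp, with the 2 genotypes alone, with trend and robust variance or with the filter on all 12 arrays, 0 with the title number block and 0 to 3 with an array left out. Homozygous minus heterozygous calls numbered 3 and became 0 with position, normexp, the 2 genotypes alone or the title number block, 8 with array weights, 1 with quantile normalization, 5 with trend and robust variance and 1 to 6 with an array left out. The 8 genes of other lists past the threshold (6 lower, 2 higher) kept their direction in every setting that gave a value, and were past it in 4 to 11 of the 13 other settings (Neurod4 of 12). The cause of these shifts was not tested, and leaving out an array also left fewer samples.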
